A study of Mus musculus with 8 samples.

Results

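ASH2L binding was examined at 7 genes, namely the 3 genes for E-proteins (Tcf4, Tcf3 and Tcf12) and the 4 genes for their inhibitors (Id1, Id2, Id3 and Id4), out of 21938 protein-coding genes on the assembled mouse chromosomes. Tcf4 was selected on a measured value, its number of separate ASH2L sites near transcription start sites (TSSs), which was the highest of any protein-coding gene, and the other 6 genes were taken as its relatives. The count at Tcf4 is therefore given as a description and was not tested. A promoter site is a site whose centre lay within 1 kb of any annotated TSS of the gene, and all sites inside the gene bodies were listed as well. Of the 6444 sites in the list, 13 were promoter sites of these genes and 4 more lay in their gene bodies.

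ASH2L is a core subunit of the KMT2 complexes, which methylate H3K4. The cells were iMEFs, immortalised mouse embryo fibroblasts in which exon 4 of both floxed Ash2l alleles had been deleted through a CAGG-Cre-ER transgene, and which depended on human ASH2L fused to an FKBP degradation tag and delivered by a lentivirus. All 8 ChIP-seq libraries share this background, which the study established as clones of the line. The groups were ASH2L precipitates without dTAG, ASH2L precipitates after 1 h of dTAG (a degrader of the tagged protein), and the matching inputs without antibody, with 2 replicates in each of the 4 groups. The table analysed combines the sites of all samples in the mm10 build, with a chromosome, a start and an end for each site. It holds no value per sample, so no level has a replicate error and the depth behind each site is unknown. The study also names a list of sites that changed after 1 h of dTAG, which was not used here, and the effect of dTAG on these sites was not analysed here. As a check of the labelled cell type, promoter sites were found at 5 of 10 fibroblast and mesenchymal marker genes (Col1a1, Prrx1, Twist1, Col1a2 and Vim, but not Col3a1, Fn1, Pdgfra, Pdgfrb and Thy1) and at 0 of 10 markers of other lineages, whereas 14.0% of all protein-coding genes had one. An island lay within 1 kb of a TSS at 7 of the former and 4 of the latter, 0 of 10 is near the share of all genes, and a promoter site is not a level of RNA, so these counts do not establish the cell type.

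E-proteins are class I basic helix-loop-helix (bHLH) transcription factors. They bind E-box sequences as homodimers or together with class II bHLH factors that are restricted to certain tissues, such as the myogenic and neurogenic factors. Id proteins have the helix-loop-helix but lack the basic region that contacts DNA, so that an E-protein held by an Id protein cannot bind. Id genes are classical targets of BMP signalling through SMAD proteins and are active in proliferating cells. The E-protein genes use alternative promoters, which give proteins with different N termini. The symbol Tcf4 stands here for the E-protein and not for Tcf7l2, an HMG-box factor of WNT signalling that is also called TCF4.

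Promoter sites were found at 5 of the 7 genes. Tcf4 had 9, and Tcf3, Tcf12, Id1 and Id3 had 1 each. Id2 and Id4 had none. Over all protein-coding genes, 14.0% had at least 1 promoter site and 2.07% had at least 2. All 3 E-protein genes and 2 of the 4 Id genes thus carried a promoter site, and Tcf4 was the only one of the 7 with more than 1. Tcf4 was chosen for its number of promoter sites, so its part in these counts follows from that choice. Among its relatives, Tcf3, Tcf12, Id1 and Id3 had a promoter site, and Id2 and Id4 did not. Each of the 7 genes had a CpG island close to a start (at most 1 kb away). Of all protein-coding genes with this feature, 21.1% had a promoter site. The order of the genes by the summed width of their promoter sites was Tcf4 (7095 bp), Tcf12 (1135 bp), Tcf3 (420 bp), Id3 (343 bp) and Id1 (220 bp). No other protein-coding gene reached the summed width of Tcf4, and 120 genes exceeded Tcf12.

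**Figure D1:**
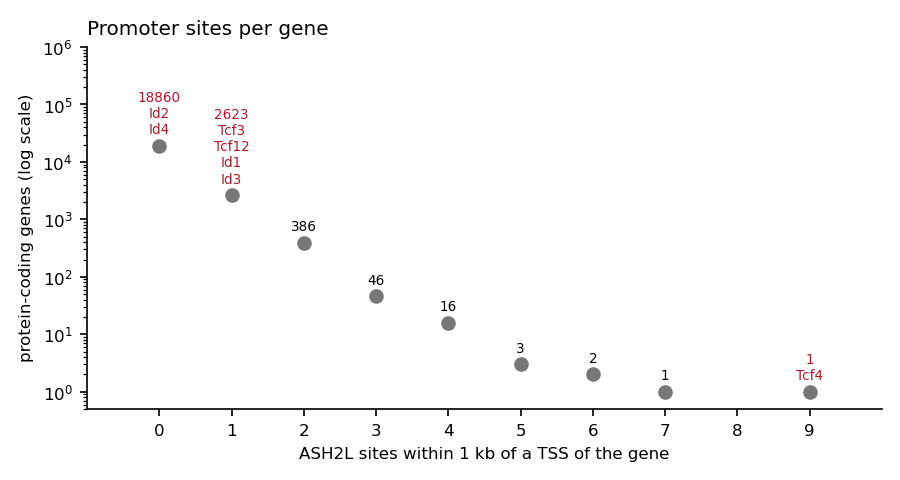
Number of protein-coding genes (log scale) by the number of ASH2L promoter sites per gene, with the number of genes above each point and the E-protein and Id genes in red. Tcf4 stands alone at 9 sites, Tcf3, Tcf12, Id1 and Id3 are among 2623 genes with 1 site, and Id2 and Id4 are among 18860 genes with none.

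Tcf4 (ENSMUSG00000053477.17) spans 345724 bp on the plus strand, chr18:69343356-69689079, and is best known for its role in neural development. Its annotation lists 62 transcripts that start at 58 distinct TSSs, more than any other protein-coding gene has. When TSSs of a gene within 500 bp of each other were joined, Tcf4 had 18 TSS clusters, and 2 genes had more. The 9 promoter sites were not spread evenly over the gene. They lay in 3 separate stretches, at the beginning of the gene, 72.35 kb into it and about 250 kb into it.

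The stretch at the beginning held 6 of the 9 sites. It ran over 5494 bp, chr18:69344337-69349830, and 85.4% of its bases were inside a site. The gaps between successive sites were 191, 95, 82, 273 and 163 bp. By comparison, 5.65% of the 6407 gaps between neighbouring sites of the whole list were under 200 bp and the median gap was 151 kb. The separate entries at the start of Tcf4 thus lay closer together than most neighbours in the list. Close spacing goes with the choice of Tcf4 for its number of sites near TSSs and was not tested. In all, 20 of the annotated TSSs of Tcf4 fell within this stretch. Among the 5608 stretches obtained by merging sites within 1 kb, 8 held more sites than this one and 19 were wider.

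The first of these 6 sites, chr18:69344337-69344612 (276 bp), covered 3 TSSs and was centred 14.5 bp upstream of the TSS of Tcf4-207, in an exon annotated as UTR. It lay in a CpG island of 563 bp and had a GC content of 61.2%. The second, chr18:69344804-69345643 (840 bp), covered no TSS. It was centred 495.5 bp upstream of the TSS of Tcf4-246, in intronic sequence with a GC content of 36.7% and no island. The third, chr18:69345739-69346665 (927 bp), covered 6 TSSs and was centred 29 bp downstream of the TSS of Tcf4-231. It had the highest GC content of the 9 sites (65.5%) and overlapped the only island of the gene that met strict criteria (1159 bp, chr18:69345843-69347001), which holds 3 of these 6 TSSs. Of the first 3 sites, the first and the third thus overlapped islands and covered TSSs, and the AT-rich site between them did neither.

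The fourth site, chr18:69346748-69347134 (387 bp), reached into the 3′ end of the same island, was intronic, and was centred 358 bp upstream of the TSS of Tcf4-253. The fifth, chr18:69347408-69349359, was the widest of the 9 at 1952 bp. It covered 7 TSSs, was centred 114.5 bp downstream of the TSS of Tcf4-245 and overlapped no island. With 0.973 CpG per 100 bp and an observed to expected CpG ratio of 0.20, it was the poorest in CpG of all promoter sites of the 7 genes. The sixth, chr18:69349523-69349830 (308 bp), was intronic, had no island, and was centred 732.5 bp downstream of the TSS of Tcf4-227. The widest ASH2L site of the gene therefore lay over a group of TSSs outside the islands.

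The site 72.35 kb into the gene, chr18:69415550-69415854 (305 bp), was intronic and without an island. It was a promoter site through 1 transcript only, Tcf4-250, whose TSS lay 195 bp downstream of its centre. That transcript has an annotation support level of 5, the weakest grade. The same holds for every transcript that starts within 1 kb of the fourth, the fifth and the sixth site, so that 4 of the 9 promoter sites, including the widest, rested on transcripts of this grade. In the RefSeq annotation this site was not within 1 kb of a TSS, and neither was the sixth site, which left 7 promoter sites with the 24 TSSs of RefSeq. The position of these 2 sites as promoter sites thus depended on the annotation.

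The stretch about 250 kb into the gene, chr18:69592436-69594673, held the remaining 2 sites in 2238 bp with a gap of 138 bp, and 93.8% of it was inside a site. The site chr18:69592436-69593752 (1317 bp) covered 8 TSSs, was centred 106 bp downstream of the TSS of Tcf4-204 and overlapped an island of 702 bp. Its GC content was 52.5%. The site chr18:69593891-69594673 (783 bp) covered the TSS of Tcf4-242 and was centred 100 bp downstream of it. It had no island and a GC content of 38.2%. The transcripts annotated to start in this stretch begin far inside the gene and so lack the upstream exons. Whether they are made in these cells cannot be told from the positions of sites.

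Of the 18 TSS clusters of Tcf4, 7 had a site, whereas 6.80% of all 52546 TSS clusters of protein-coding genes had one. The count depended on the joining distance, with 12 of 28 clusters when TSSs within 200 bp were joined and 4 of 14 at 1 kb. Because Tcf4 was chosen for its number of promoter sites, a high share of clusters with a site follows from that choice. The comparisons with all genes in this paragraph are therefore description only, and neighbouring clusters can share a site. The most upstream TSS of the gene was among those without a site, since the first site was centred 1.12 kb from it. No site lay within 1 kb of the 5 clusters between 156.03 and 219.81 kb, which hold 21 TSSs, or of the 5 clusters from 256.18 kb to 339.02 kb. Of the 7 clusters with a CpG island within 1 kb, 5 had a site, compared with 16.9% of such clusters in all genes. Of the 11 clusters without an island, 2 had a site, compared with 0.567% in all genes. These 2 were the cluster under the 1952-bp site and the TSS of Tcf4-250, which lies just outside its site. By the strict criteria, only 2 clusters of Tcf4 had an island within 1 kb, both with a site, and 5 clusters with a site had none. Tcf4 had 21 islands by the lenient criteria, and the 3 with a site were those over TSSs.

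**Figure D2:**
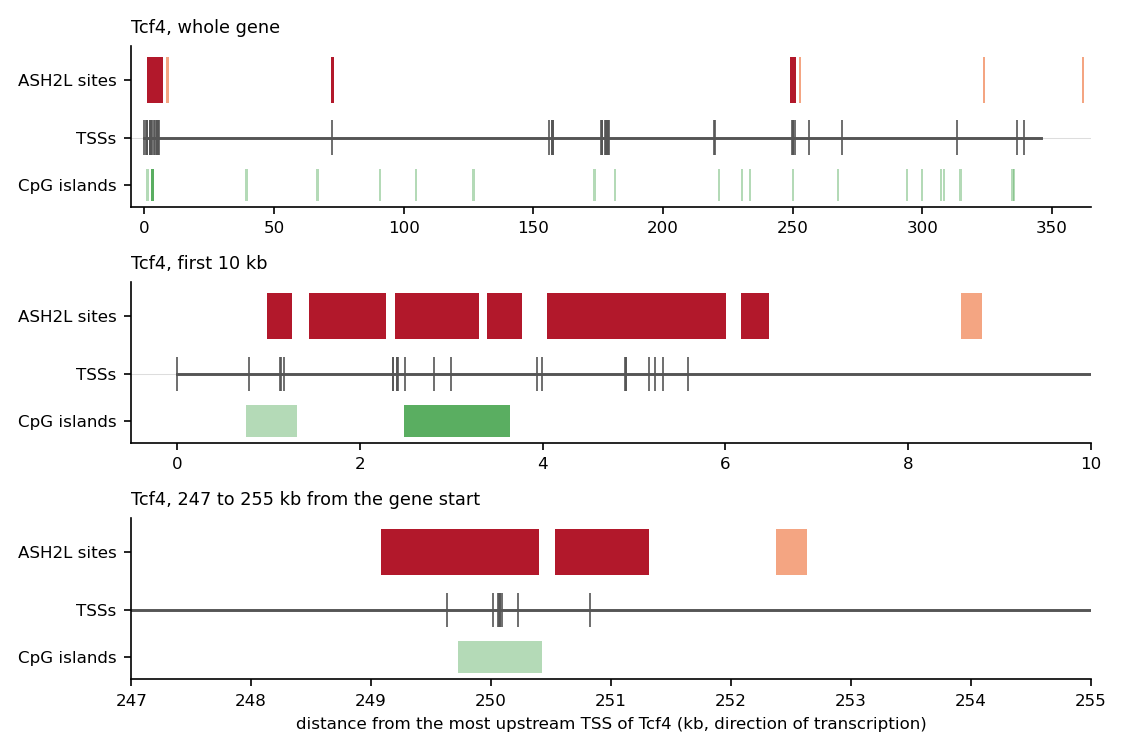
Map of Tcf4 with ASH2L sites (dark red, promoter sites, and light red, sites farther than 1 kb from a TSS), annotated TSSs (ticks on the gene line) and CpG islands (dark green where strict criteria were met), against the distance from the most upstream TSS in kb. Narrow sites and islands in the top panel are drawn at a minimum width. The 9 promoter sites fall in 3 stretches, with 6 in the first 7 kb, and the TSSs between 156.03 and 219.81 kb have none.

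Inside Tcf4 but away from TSSs lay 3 further sites, of 230, 256 and 274 bp. The first 2 were neighbours of the stretches described above, at chr18:69351935-69352164, 3105.5 bp downstream of the TSS of Tcf4-227, and at chr18:69595733-69595988, 1678.5 bp downstream of the TSS of Tcf4-242. The last, chr18:69666659-69666932, was 10128.5 bp from any TSS of the gene. None of the 3 overlapped an island. Together with the promoter sites this made 12 sites in the gene body, and 4 protein-coding genes had more. A further site of 250 bp lay beyond the 3′ end, 22.59 kb from the nearest TSS.

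Tcf3 (ENSMUSG00000020167.14, minus strand, chr10:80409514-80433647) encodes the E-proteins E12 and E47. Its site, chr10:80433724-80434143 (420 bp), lay wholly upstream of the gene in GENCODE, with its centre 286.5 bp from the nearest TSS and with no TSS inside. RefSeq places a TSS of Tcf3 farther upstream, 42.5 bp from the centre of the site. The site touched 2 adjacent CpG islands with a summed length of 1470 bp, and its own GC content was 50.0%. The other 4 TSS clusters of Tcf3, all without an island, had no site, and no site lay in the gene body.

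Tcf12 (ENSMUSG00000032228.16, minus strand, chr9:71842688-72111871) encodes HEB. Like Tcf4 it is long (269184 bp) and has many TSSs (20 in 7 clusters), but it had 1 promoter site. That site, chr9:72110920-72112054 (1135 bp), covered the 10 TSSs of the most upstream cluster and was centred 113 bp downstream of the TSS of Tcf12-211. It lay inside an island of 1802 bp, and with a GC content of 73.6% and 14.0 CpG per 100 bp it was the richest in GC and CpG of the 13 promoter sites. The 6 downstream clusters of Tcf12 had no site, although 2 of them had an island within 1 kb. A second site near the gene, chr9:72133016-72133438 (423 bp), was centred 21.36 kb upstream in an island of 853 bp. The nearest annotated TSS to it, of the processed pseudogene Gm7863, was 4.64 kb away.

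The Id genes are short. Id1 (ENSMUSG00000042745.9, plus strand, chr2:152736251-152737410, 1160 bp) had its promoter site at chr2:152736884-152737103 (220 bp), the narrowest of the 13. It was centred 742.5 bp downstream of the only TSS, with 181 bp in exonic UTR and 39 bp in coding sequence, and near the 3′ end of an island of 1143 bp that covers the TSS as well. A second site followed after 263 bp at chr2:152737367-152737622 (256 bp) and spanned the 3′ end of the gene, with 44 bp inside it. At Id1 the sites thus lay over the later part and the end of the gene and not over its start.

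Id3 (ENSMUSG00000007872.3, plus strand, chr4:136143497-136145755, 2259 bp) had a site on its start. The site, chr4:136143317-136143659 (343 bp), was centred 9 bp upstream of the TSS of Id3-201, with 180 bp upstream of the gene and 163 bp in exonic UTR. It lay at the 5′ edge of an island of 1594 bp and covered 13.0% of it. RefSeq starts Id3 at a later position, and its TSS was 334 bp from the centre of the site.

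Id2 (ENSMUSG00000020644.9, minus strand, chr12:25093799-25097140, 3342 bp) had no promoter site, although an island of 1343 bp covered 2 of its 3 TSSs. Its only site, chr12:25094513-25094986 (474 bp), was centred 1337.5 bp downstream of the nearest TSS. Of its bases 410 were intronic and 64 were exonic UTR, its GC content was 47.0%, and it overlapped no island. Id4 (ENSMUSG00000021379.2, plus strand, chr13:48261228-48266026, 4799 bp) had no site at all. The nearest site on its chromosome was centred 616586 bp from its TSS, although the TSS lay in the longest island of the 7 genes (1936 bp). An island over the TSS was thus present at all 4 Id genes, with a promoter site at Id1 and Id3.

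Near the 1-kb limit of the promoter window, the sites just inside were those of Id1 (742.5 bp) and the sixth of Tcf4 (732.5 bp), and the nearest outside were the second site of Id1 (1243.5 bp), the site of Id2 (1337.5 bp) and the body site of Tcf4 at 1678.5 bp.

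**Figure D3:**
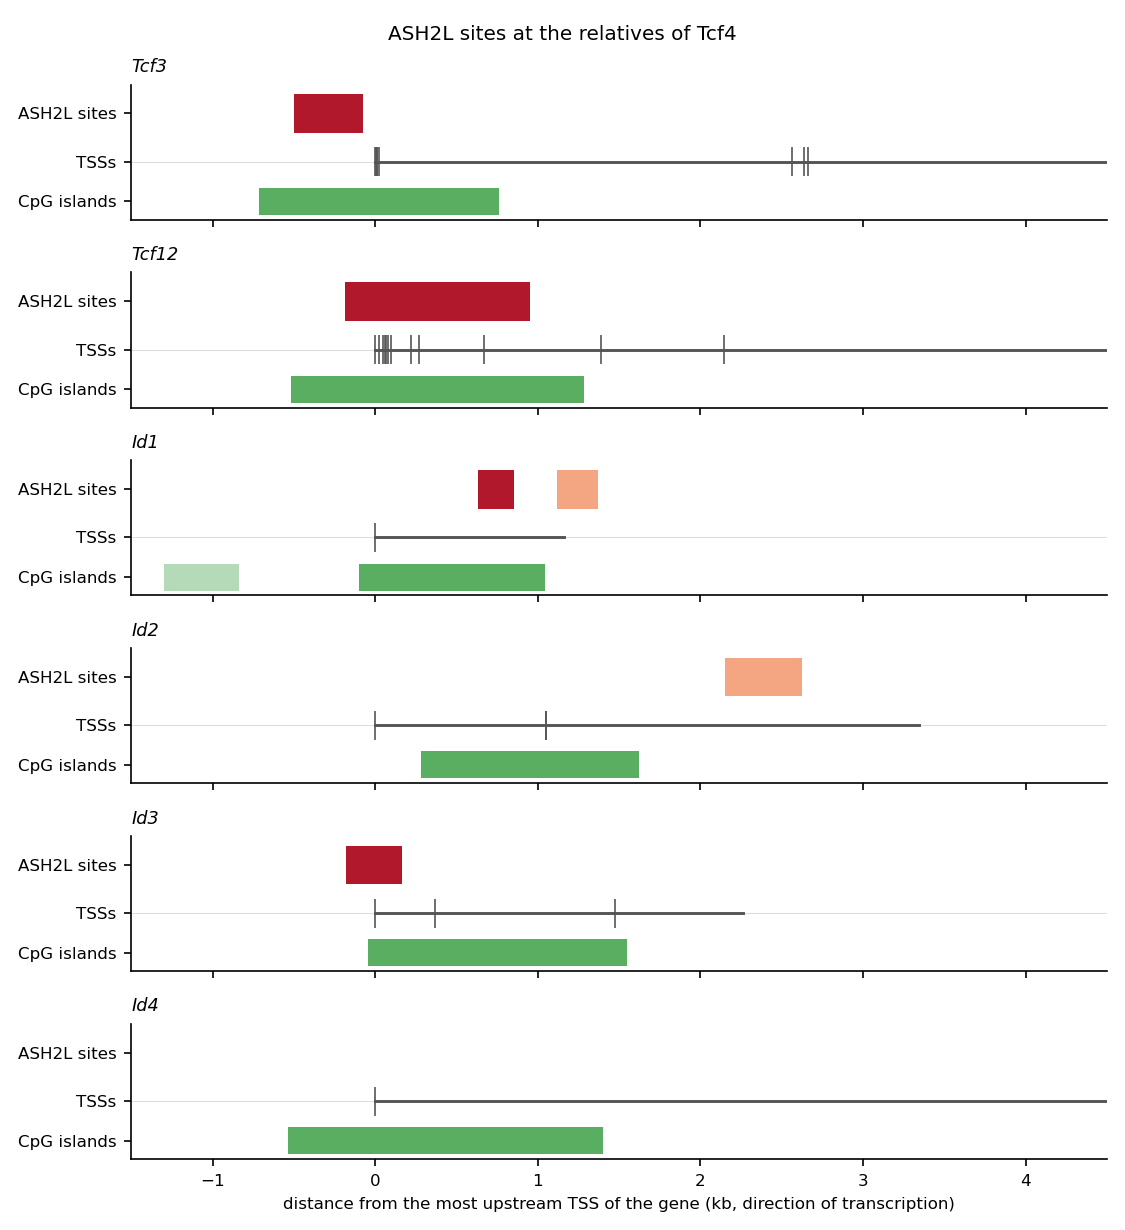
ASH2L sites (dark red, promoter sites, and light red, sites farther than 1 kb from a TSS), TSSs (ticks on the gene line) and CpG islands (green) at the relatives of Tcf4, against the distance from the most upstream TSS in kb. The sites of Tcf12 and Id3 lie over the start of the gene, that of Tcf3 lies upstream of it, those of Id1 and Id2 lie downstream, and Id4 has an island of 1936 bp without a site.

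The sequences show how different these sites are in CpG content. The stretches below were read from GRCm38.p6 in the direction of the gene, contain no exon, and have CpG dinucleotides in capitals. The first 3 are the parts of the promoter sites of Tcf12, Tcf3 and Id3 upstream of their first TSS in GENCODE or RefSeq. They are chr9:72111894-72112054 with 28 CpG in 161 bases, chr10:80433977-80434143 with 8 CpG in 167 bases, and chr4:136143317-136143496 with 4 CpG in 180 bases. The fourth, chr12:25094691-25094870 with 5 CpG, is the middle of the intronic part of the Id2 site, farther than 1 kb from any TSS of Id2.
Tcf12: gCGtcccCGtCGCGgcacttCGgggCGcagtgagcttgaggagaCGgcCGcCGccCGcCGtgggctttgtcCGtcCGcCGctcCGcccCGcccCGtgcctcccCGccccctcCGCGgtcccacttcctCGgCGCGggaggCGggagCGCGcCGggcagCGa
Tcf3: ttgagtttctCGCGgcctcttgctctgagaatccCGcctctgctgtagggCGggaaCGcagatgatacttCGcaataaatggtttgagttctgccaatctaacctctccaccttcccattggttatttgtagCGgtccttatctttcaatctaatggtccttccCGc
Id3: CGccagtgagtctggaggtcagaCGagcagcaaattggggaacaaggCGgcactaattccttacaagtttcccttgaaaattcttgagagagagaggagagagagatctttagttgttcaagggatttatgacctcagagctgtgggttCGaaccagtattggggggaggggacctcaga
Id2: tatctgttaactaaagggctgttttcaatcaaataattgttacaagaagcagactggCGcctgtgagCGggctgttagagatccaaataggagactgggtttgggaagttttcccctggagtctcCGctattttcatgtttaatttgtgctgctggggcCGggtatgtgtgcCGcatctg

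For contrast, the 180 bases directly upstream of the first TSS of Id1 and of Id4, in which no site lies, were read in the same way. They are chr2:152736071-152736250 with 5 CpG and chr13:48260936-48261115 with 31 CpG.
Id1: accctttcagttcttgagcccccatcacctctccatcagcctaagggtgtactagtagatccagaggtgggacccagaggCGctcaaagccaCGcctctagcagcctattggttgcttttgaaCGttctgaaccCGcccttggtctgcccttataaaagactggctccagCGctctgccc
Id4: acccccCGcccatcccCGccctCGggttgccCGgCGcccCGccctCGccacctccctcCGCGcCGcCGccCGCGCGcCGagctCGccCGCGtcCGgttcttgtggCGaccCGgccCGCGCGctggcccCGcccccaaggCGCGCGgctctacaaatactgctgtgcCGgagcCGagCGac

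The upstream sequence of Id4, which had no site, thus held 31 CpG and a GC content of 80.0%, close to the 28 CpG and 80.1% of the upstream part of the site at Tcf12, whereas the bound stretch at Id3 had 4 CpG and 49.4%. The number of CpG in these 6 stretches did not separate those inside a site from those outside. The stretches are parts cut to contain no exon, however, and the whole site of Id3 held 13 CpG and overlapped a strict island. They therefore give no comparison of whole sites with unbound sequence.

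The sequence and width of the sites were not used to choose the genes. The 13 promoter sites had a median width of 420 bp, from 220 to 1952 bp, and the 3168 promoter sites of all protein-coding genes had a median of 305 bp. The median of the sites of the 7 genes was 783 bp with a window of 500 bp and 777.5 bp with sites within 1 kb merged. Of the 13 sites, 3 (23.1%) were wider than 1 kb, namely the widest site of each of the 2 main stretches of Tcf4 and the site of Tcf12, compared with 3.09% of all promoter sites. None had the minimum width of 200 bp, which 9.25% of all promoter sites had. The median of the 9 sites of Tcf4 alone was 783 bp, and the 4 sites of its relatives had a median of 382 bp.

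The promoter sites of the 7 genes, of which 9 of 13 were entries of Tcf4, had a lower median GC content than promoter sites in general. Their median GC content was 49.0%, from 36.7 to 73.6%, compared with 66.5% for all promoter sites of protein-coding genes. The median was 46.6% at Tcf4 and 54.1% for the 4 sites of the relatives. Among the relatives, the sites of Tcf3 (50.0%), Id1 (58.2%) and Id3 (49.0%) lay below 66.5% and that of Tcf12 (73.6%) lay above it. No GC content is given for merged sites, so the pooled median rests mainly on the separate entries of 1 gene. A CpG island was overlapped by 8 of the 13 sites (61.5%, Wilson 95% confidence interval 35.5 to 82.3%), compared with 89.3% of all promoter sites. With sites within 1 kb merged it was 5 of 6, and with only the start of each gene 4 of 4, so the lower share rests on the separate entries at Tcf4. All 5 sites without an island were sites of Tcf4, of which 4 of 9 overlapped one (44.4%, interval 18.9 to 73.3%), whereas the 4 sites of Tcf3, Tcf12, Id1 and Id3 all did. These intervals cover counting error only, and 9 of the 13 sites share 1 gene. A strict island was overlapped by 2 of the 9 sites of Tcf4 (22.2%), by all 4 sites of its relatives and by 78.1% of all promoter sites. The observed to expected CpG ratio had a median of 0.651 in the 13 sites and of 0.878 in all promoter sites.

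**Figure D4:**
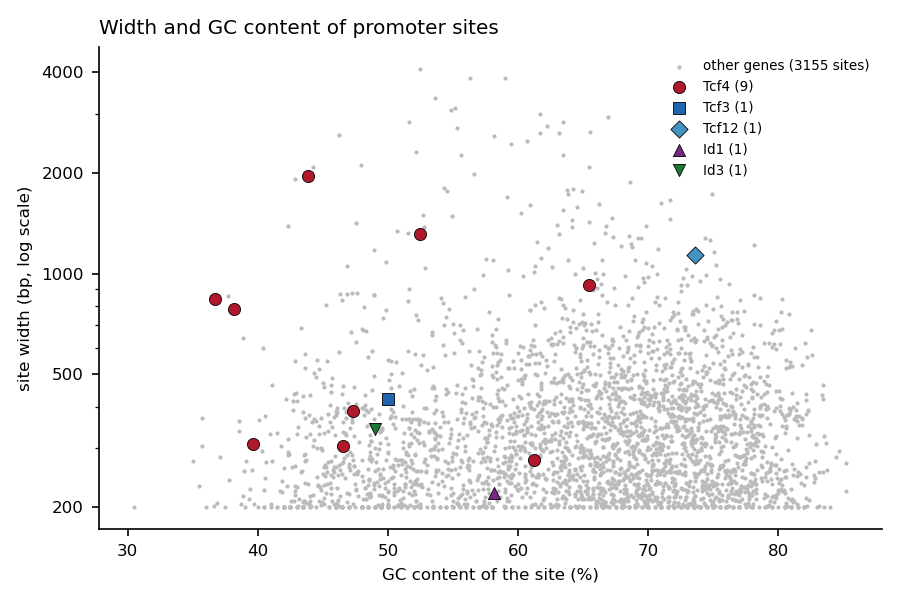
Width (bp, log scale) against GC content (%) of the 3168 ASH2L promoter sites of protein-coding genes, with the sites of Tcf4, Tcf3, Tcf12, Id1 and Id3 marked. The sites of Tcf4 lie between 36.7 and 65.5%, all below the median of 66.5% over all sites, 4 of the 9 are below a GC content of 44%, and the site of Tcf12 lies at 73.6%.

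Relative to the TSS, 7 of the 13 sites were centred downstream, and 7 lay within 150 bp of a TSS (53.8%). Of all promoter sites of protein-coding genes, 67.0% were centred downstream and 52.9% lay within 150 bp. The median offset was 29.0 bp for the 13 sites and 73.5 bp for all.

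The central 200 bp of each promoter site were searched on both strands for E-boxes, the sequences that E-proteins bind, and for motifs linked to the control of Id genes. CAGGTG, which reads CACCTG on the other strand and is favoured by E-protein dimers, was in none of the 13 windows and in 11.4% of the 3168. CAGCTG was likewise in none and in 7.89%, and CACGTG, favoured by MYC and its relatives, in none and in 3.31%. Any E-box, CANNTG, which includes these 3, was in 4 windows, 3 of Tcf4 and that of Id1, and in 38.3% of all. GGCGCC, a core of SMAD-bound BMP response elements, was in 2 windows, the third site of Tcf4 and the site of Id3, and in 22.5% of all. The CREB motif TGACGTCA was in none and in 0.915%. With 13 windows, absence says only that these letters did not occur there.

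The genes most like Tcf4 in the number of separate promoter sites were Foxp1 with 7, Pcdh7 and Runx2 with 6 each, Nr2f2, Zfhx4 and Tshz1 with 5 each, and, among those with 4, Hoxa9, Tfap2a and Bnc2. In the number of TSS clusters with a site, Tcf4 (7) was followed by Foxp1, Nr2f2, Pcdh7 and Tsc22d1 with 5 each. Once sites within 1 kb were merged, Tcf4 had 3 promoter stretches, as did Bnc2 and Baz2b, and Rbfox2 had 4. Tcf4 was also among the genes with the most promoters to be examined. Of the 183 genes with at least 10 TSS clusters, 33.9% had a promoter site and 21 had at least 2, whereas 8.69% of the 8776 genes with 1 cluster had one. Of the 2492 genes of at least 100 kb, 19.1% had one. Counted per TSS cluster the order was the other way, since 4.87% of the clusters of genes with at least 10 had a site, compared with 8.69% for genes with 1 cluster and 6.80% overall. The part of the number of annotated TSSs in the number of sites at Tcf4 was not tested.

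Genes that act with E-proteins and Id proteins were counted in lists by role. The class II bHLH genes, whose products pair with E-proteins, had a promoter site at 3 of 41 (7.32%). These were Twist1 and Twist2, regulators of mesenchymal cells, with 2 sites of 743 bp in sum and 1 site of 1233 bp, and Bhlhe22, a neural repressor, with 2 sites of 2744 bp in sum. The other 38, which include the myogenic and neurogenic factors, had none. An island lay within 1 kb of a TSS at 29 of the 41, and all 3 genes with a site were among these 29. The 12 Hes, Hey and related repressor genes had no promoter site, and all 12 had an island. Of all protein-coding genes with an island within 1 kb of a TSS, 21.1% had a promoter site.

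The list of BMP and SMAD genes, which act upstream of the Id genes, had a promoter site at 11 of 24 (45.8%). Among receptors these were Bmpr1a (2 sites, 2053 bp in sum), Acvr2a (1699 bp), Bmpr2 (206 bp) and Acvr1 (203 bp). Among the SMADs, the common mediator Smad4 had 2 sites (930 bp), the BMP-activated Smad5 had 2 (420 bp), and the inhibitors Smad7 and Smad6 had 3 (1245 bp) and 1 (283 bp). The ubiquitin ligases Smurf2 (335 bp) and Smurf1 (234 bp) and the BMP antagonist Grem1 (296 bp) completed the list. None of the BMP ligands listed had a site, and neither did Smad1, Smad9, Nog or Chrd.

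Of 12 genes for cofactors of E-proteins, 4 (33.3%) had a promoter site. Runx1t1, which encodes the corepressor ETO, had 3 sites with a summed width of 4026 bp, and the acetyltransferase gene Ep300 had 1 of 1579 bp. Lmo4 had 2 sites (487 bp) and Kat2b had 1 (309 bp). Of the HMG-box genes with similar symbols, Tcf7l2 had 2 promoter sites (730 bp), and Tcf7, Tcf7l1 and Lef1 had none. Of the BMP and SMAD genes 23 of 24 had an island within 1 kb of a TSS, and of the cofactor genes all 12. Of all protein-coding genes 14.0% had a promoter site, and of those with such an island 21.1%. The BMP and SMAD list had a larger share (45.8%) than both. The counts of 4 of 12 cofactor genes, 3 of 41 class II bHLH genes and 0 of 12 genes in the Hes list are near these shares at these sizes. The lists are small, were chosen with earlier results of these data known, and were not tested.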

How the data were processed

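The deposited data used here are 1 table of ASH2L sites over all samples, whose values are other than levels, namely genomic positions (chromosome, start and end) in mm10. Per the labels and the study's methods, the authors aligned reads with BWA, filtered them with SAMtools, merged replicates and called narrow peaks with MACS2. Versions are not given in the sources used here. The table has no count or score per sample, so no test between groups and no depth could be given. The study's list of sites changed after dTAG was not used here. The authors' annotation release is newer than the one used here.

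Starts were read as counted from 0 (the smallest end minus start is 200) and are printed counted from 1. The 6428 sites on the 21 assembled chromosomes were compared, and 16 others were left out. TSSs and gene models came from GENCODE mouse release 21, RefSeq and sequence from GRCm38.p6. A promoter site has its centre within 1 kb of a TSS of the gene, and TSSs of a gene within 500 bp were joined to clusters. CpG islands were computed from the sequence (at least 200 bp, GC over 50%, observed to expected CpG over 0.6, or for strict islands 500 bp, 55% and 0.65). The RefSeq promoter table matched 5 of the 7 genes and was not used for printing.

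The genes, the lists and the named genes were chosen with earlier results of these data known. Named were all sites of the 7 genes, the listed genes with a promoter site (at most 12 a list, by summed width) and the 10 genes with the most promoter sites after Tcf4. One of the genes this rule names is not reported here. All results are counts and medians beside the same over all genes or sites. The functions were tested on simulated data. Calculations used Python 3.11.15, NumPy 2.4.6, pandas 2.3.3, SciPy 1.17.1, pysam 0.24.0 and matplotlib 3.10.9.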

Additional observations from a re-analysis of the deposited data

How the results depend on the processing

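Of 67 alternatives to the 7 counts and medians at these genes, 52 stayed within 1.5 times the value given and 15 did not. The number of genes with a promoter site ranged from 4 to 6 over its 11 alternatives. Id1 lost its site with a window of 500 bp, and Id2 gained one with a window of 3 kb. With only the most upstream TSS of each gene, Tcf4 had 0 promoter sites and 0 TSS clusters with a site, the 7 genes had 4 promoter sites, all 4 of them overlapping an island, and 13 sites in gene bodies were farther than 1 kb from that TSS. With sites within 1 kb merged, Tcf4 had 3 promoter sites, the 7 genes had 6, of which 5 overlapped an island, and their median width was 777.5 bp. Merging also moved the centre of the Id1 site past 1 kb, and when merged sites were placed by any overlap, an alternative added after the data were seen like those with RefSeq and basic GENCODE TSSs, the numbers were 3 and 7. Joining TSSs within 200 bp or 1 kb gave Tcf4 12 or 4 clusters with a site. With a window of 500 bp the median width was 783 bp, and with a window of 3 kb 2 body sites remained off promoters. With RefSeq TSSs Tcf4 had 7 promoter sites and with basic GENCODE TSSs 8. No paired analysis was possible because the list of sites carries no column per sample. For the same reason no replicate could be left out and no stricter peak threshold applied, and the depth behind a missing site, as at Id4, is unknown.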
